A study of Mus musculus with 9 samples.

Results

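The genes described here encode the matrix-cutting metalloproteinases of the mouse ovary, their relatives and their inhibitors. They are every gene of the deposited expression table whose symbol names a matrix metalloproteinase (MMP), an ADAMTS protease, an ADAMTS-like protein or a tissue inhibitor of metalloproteinases (TIMP). The rule used names only and no measured value. It took 51 of 54838 genes: 23 MMP, 19 ADAMTS, 5 ADAMTS-like and 4 TIMP genes.

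MMPs are zinc endopeptidases that are made as inactive precursors and, once cleaved, degrade collagens, proteoglycans and other matrix proteins, either as secreted enzymes or at the cell surface. ADAMTS proteases are secreted enzymes with thrombospondin repeats. Some of them cut versican and aggrecan, some trim procollagens, and some act on fibrillin microfibrils, while ADAMTS-like proteins share their accessory domains but lack the protease domain. TIMPs bind the active site of these enzymes and block it. In the ovary this system remodels the matrix around growing follicles, opens the follicle wall at ovulation and takes part in building and resolving the corpus luteum.

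Total RNA of adult mouse ovary was sequenced in 9 libraries, 3 for each of 3 genotypes, at 40 h after pregnant mare serum gonadotropin (PMSG), a hormone preparation that drives follicle growth. The DKO-TG group, labelled DKO LXR TG-AMH-LXRb, lacks both liver X receptors (LXRs, nuclear receptors for oxysterols encoded by Nr1h3 and Nr1h2) and carries a transgene named for AMH and LXRb. The DKO group, labelled DKO LXR, has the double knockout alone, and the WT group is wild type. All 3 groups were adult and had PMSG, so no library shows the ovary without it. The strain, the cells in which the transgene acts and whether a library came from 1 animal or from pooled animals are not stated in the labels. The p-values thus measure only how these samples vary, part of which may be technical. The design sets the double knockout against wild type and the transgene-bearing double knockout against both.

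Expression was given as RPKM, reads per kilobase of exon and scaled by a library size, so levels can be set side by side between genes. Averaged over the 9 libraries, 13 of the 51 genes reached 5 RPKM and 23 reached 1 RPKM, while 27 stayed at or under 1 RPKM in every library. Timp1, the small secreted inhibitor, had the highest mean at 158 RPKM. Next came Mmp2 (gelatinase A, 81.5 RPKM), Timp2 (41.8 RPKM), Mmp11 (stromelysin-3, 26.9 RPKM), Mmp14 (the main membrane-anchored MMP, 20.6 RPKM), Adamts10 (12.7 RPKM) and Timp3 (11.5 RPKM). The 3 leading inhibitors, the gelatinase Mmp2 and its membrane activator Mmp14 were thus all among the 7 most abundant transcripts of the set. Of the 51 genes, 28 reached 0.5 RPKM in at least 3 libraries and were tested, and 23 were not.

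**Figure D1:**
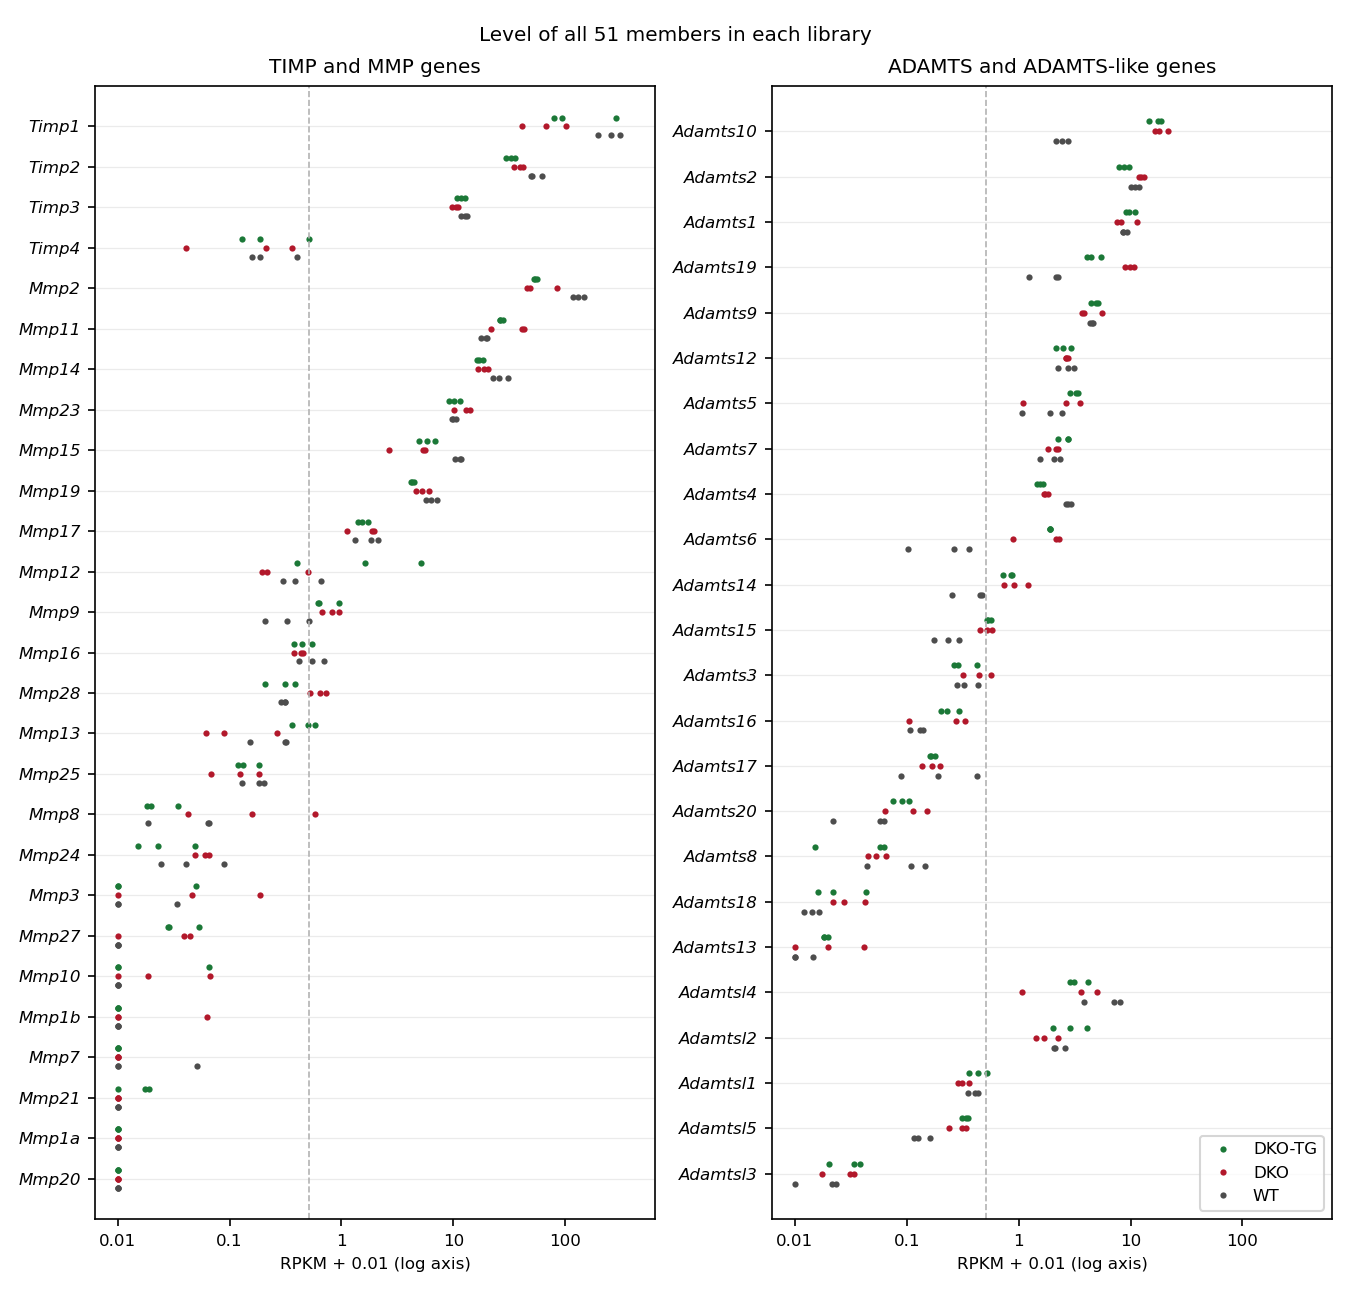
RPKM of each of the 51 genes in each of the 9 libraries, on a log axis after adding 0.01, with genes grouped by family and colours for DKO-TG, DKO and WT. The dashed line marks the 0.5 RPKM filter. 27 genes lie at or under 1 RPKM in every library, and Mmp1a and Mmp20 are listed at 0 throughout.

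Part of the sparsely expressed genes lie together: 10 of the 23 MMP genes sit in 1 cluster on chromosome 9 that spans 427 kb, chr9:7272514-7699585 (mm10), and 9 of these 10 did not pass the filter. The other members under the filter lie outside it. The cluster holds the collagenases Mmp13, Mmp8, Mmp1a and Mmp1b, the stromelysins Mmp3 and Mmp10, the macrophage elastase Mmp12, the matrilysin Mmp7, the enamel protease Mmp20 and Mmp27. Its gene means were under 0.2 RPKM for 8 of the 10, and Mmp12 was the one tested. Mmp13, the main interstitial collagenase of rodents, had 0.575, 0.352 and 0.496 RPKM in the DKO-TG libraries, 0.256, 0.0792 and 0.0515 RPKM in the DKO libraries and 0.310, 0.142 and 0.302 RPKM in the WT libraries. Its DKO-TG values lay above all those of the other groups, but all of them are close to the filter and the gene was not tested. Mmp8, the neutrophil collagenase, had 0.00845, 0.00994 and 0.0248 RPKM in the DKO-TG libraries, 0.0322, 0.148 and 0.567 RPKM in the DKO libraries and 0.0540, 0.0553 and 0.00854 RPKM in the WT libraries. The value of DKO library 3 stood out, and the summed level of 10 neutrophil markers was 103 RPKM in that library, against 8.12 and 22.2 RPKM in the other DKO libraries.

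The start regions of 3 sparse cluster genes and of 4 abundant members outside the cluster are printed so that they can be compared. Each is the 250 bases before the RefSeq gene start (RefSeq on GRCm38.p6, the mm10 assembly), written 5′ to 3′ on the strand of the gene: Mmp13 chr9:7272264-7272513 (plus), Mmp3 chr9:7445572-7445821 (plus), Mmp10 chr9:7502092-7502341 (plus), Mmp14 chr14:54431348-54431597 (plus), Mmp11 chr10:75932503-75932752 (minus), Timp1 chrX:20869916-20870165 (plus) and Timp2 chr11:118355412-118355661 (minus). Capitals mark the AP-1 motif TGANTCA, the GC box GGGCGG and the TATA motif TATAAA, each searched on both strands, where neighbouring GC boxes may overlap.
Mmp13: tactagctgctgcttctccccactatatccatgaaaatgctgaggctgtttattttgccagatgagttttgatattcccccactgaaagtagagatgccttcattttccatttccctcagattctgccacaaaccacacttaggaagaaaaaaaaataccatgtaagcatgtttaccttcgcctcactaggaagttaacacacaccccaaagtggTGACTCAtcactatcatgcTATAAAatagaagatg
Mmp3: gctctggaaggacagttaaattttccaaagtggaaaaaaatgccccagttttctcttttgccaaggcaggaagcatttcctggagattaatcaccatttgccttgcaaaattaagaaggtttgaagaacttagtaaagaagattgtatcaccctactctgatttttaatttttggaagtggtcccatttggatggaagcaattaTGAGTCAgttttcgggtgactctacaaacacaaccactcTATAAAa
Mmp10: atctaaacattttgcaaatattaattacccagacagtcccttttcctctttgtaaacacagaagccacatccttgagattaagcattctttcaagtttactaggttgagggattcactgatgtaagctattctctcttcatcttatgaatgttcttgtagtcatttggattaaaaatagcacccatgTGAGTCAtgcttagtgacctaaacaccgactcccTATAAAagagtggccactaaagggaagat
Mmp14: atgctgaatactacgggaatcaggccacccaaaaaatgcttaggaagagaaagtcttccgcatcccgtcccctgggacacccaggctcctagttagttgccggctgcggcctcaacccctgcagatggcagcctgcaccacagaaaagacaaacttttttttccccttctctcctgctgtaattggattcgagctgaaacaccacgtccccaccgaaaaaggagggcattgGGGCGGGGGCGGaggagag
Mmp11: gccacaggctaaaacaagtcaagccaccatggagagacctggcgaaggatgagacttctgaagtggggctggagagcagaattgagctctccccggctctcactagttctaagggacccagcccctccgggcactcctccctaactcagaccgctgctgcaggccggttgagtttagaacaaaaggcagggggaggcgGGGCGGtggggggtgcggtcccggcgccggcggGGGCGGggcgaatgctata
Timp1: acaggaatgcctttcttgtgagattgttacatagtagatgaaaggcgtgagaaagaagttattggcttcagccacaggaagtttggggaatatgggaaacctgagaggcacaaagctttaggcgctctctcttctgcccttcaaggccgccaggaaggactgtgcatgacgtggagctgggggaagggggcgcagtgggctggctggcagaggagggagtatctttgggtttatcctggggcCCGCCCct
Timp2: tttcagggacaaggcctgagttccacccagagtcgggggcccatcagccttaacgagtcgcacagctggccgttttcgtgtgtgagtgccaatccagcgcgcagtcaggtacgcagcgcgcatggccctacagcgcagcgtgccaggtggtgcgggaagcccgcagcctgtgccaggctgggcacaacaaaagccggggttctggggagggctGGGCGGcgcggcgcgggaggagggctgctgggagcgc

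RefSeq start windows were matched for 36 of the 51 genes, with 39 windows in all. Mmp2, Adamts6, Adamts10 and Adamts19 were among the genes without a window. In the cluster, 8 of 12 windows (66.7%) held the AP-1 motif, 7 of 12 (58.3%) the TATA motif and 0 of 12 the GC box. The cluster windows of Mmp8 and Mmp27 held none of these motifs. In the 27 member windows outside the cluster, 0 held the AP-1 motif, 3 (11.1%) the TATA motif and 20 (74.1%) the GC box. GC boxes there were not limited to abundant genes. The sparse Adamtsl3 (0.0155 RPKM) held 4 and Mmp24 (0.0363 RPKM) held 3, while Mmp23 (10.9 RPKM) held 0. Among all 32851 mouse windows of the same length the shares were 6.75% for AP-1, 12.4% for TATA and 32.7% for the GC box. The nuclear receptor half-site AAGGTCA that SF-1 can bind was in 2 of the 39 member windows, those of Mmp1a and Adamtsl5, against 4.08% of all windows. The LXR direct repeat, searched only as AGGTCA on the same strand again after 4 further bases, was in 0 of the 39 member windows and in 5 of all windows. A match is a description of letters, and no match says nothing of binding elsewhere.

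Several facts of the whole series touch every result. The libraries held 40.1 M to 59.4 M recovered reads. WT libraries held 48.6 M to 57.7 M of them, yet listed fewer genes above 0 RPKM. These were 25683 to 27236 genes in WT, 31219 to 32291 in DKO and 30687 to 31329 in DKO-TG libraries. Nr1h3 was at 0.538, 0.824 and 0.647 RPKM in the DKO-TG libraries, 0.590, 1.11 and 0.717 RPKM in the DKO libraries and 5.47, 4.12 and 4.45 RPKM in the WT libraries, and Nr1h2 at 5.14, 5.96 and 5.90 RPKM in the DKO-TG libraries, 7.79, 6.02 and 5.79 RPKM in the DKO libraries and 22.5, 18.7 and 15.2 RPKM in the WT libraries, so both targeted genes were low in every library labelled as knockout; Nr1h2 was not higher in DKO-TG than in DKO ovaries (log2 change -0.18, limma adjusted p = 0.621), and reads of a transgene need not be counted at that gene. All 8 granulosa cell markers passed the filter, with sums of 1669.6 to 2046 RPKM in DKO-TG, 1136 to 2306 RPKM in DKO and 1807 to 2513 RPKM in WT libraries. The nuclear RNA Malat1 had 246 to 279 RPKM in DKO-TG, 177 to 213 RPKM in DKO and 1.67 to 11.1 RPKM in WT libraries. Of 5 tested nuclear-retained RNAs, 3 were called higher and 1 lower (Gm26917) in DKO against WT, and 4 higher and 1 lower (Gm26917) in DKO-TG against WT. These differences of the WT libraries and the genotype cannot be told apart in any difference from WT. Rescaled to TPM, where every library has the same sum, the median of all genes moved to 0.54 in DKO and 0.52 in DKO-TG against WT. With the plain total of reads those medians were 0.29 and 0.26. The share of calls that were higher in DKO than in WT ovaries over all genes was 54.4% as deposited, 91.2% with TPM, 78.4% with the plain total and 46.2% with TMM scaling; for DKO-TG against WT it was 56.6%, 91.6%, 77.3% and 45.7%. Changes under another scaling are therefore also given relative to its median. Whole ovaries were measured, so fewer cells of a type and less RNA per cell cannot be told apart.

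On the deposited scaling, the inhibitor Timp2, the MMPs Mmp2, Mmp14 and Mmp15 and the aggrecanase Adamts4 were lower, and Mmp9 and 5 ADAMTS proteases (Adamts6, Adamts10, Adamts14, Adamts15 and Adamts19) were higher, in both double-knockout groups than in WT ovaries. Differences were tested with limma on log2(RPKM + 0.5) over 18889 genes, with a call at a Benjamini-Hochberg adjusted p under 0.05. In DKO against WT ovaries, 15 of the 28 tested members were called, 8 higher and 7 lower. Over all genes 56.7% were called, 30.8% higher and 25.9% lower, so the members' share of 53.6% is near the background. The libraries of both groups did not overlap for 16 of the 28 members, with 61.2% of all genes. In DKO-TG against WT ovaries, 13 members were called, 6 higher and 7 lower (46.4%), with 51.4% of all genes called, 29.1% higher and 22.3% lower. The libraries did not overlap for 15 members, with 65.8% of all genes. These comparisons share the WT libraries. In DKO-TG against DKO ovaries, 2 members were called, both lower (7.14%), with 2.23% of all genes called, 0.498% higher and 1.73% lower. Here the libraries did not overlap for 5 members, with 24.2% of all genes. The median log2 change of the 28 members was -0.031 in DKO against WT, -0.058 in DKO-TG against DKO and 0.0023 in DKO-TG against WT ovaries, beside 0.016, 0.030 and 0.031 over all genes. Changes below are log2 changes ± SE from that fit with 3 libraries per group, and they understate the change of weakly expressed genes.

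**Figure D2:**
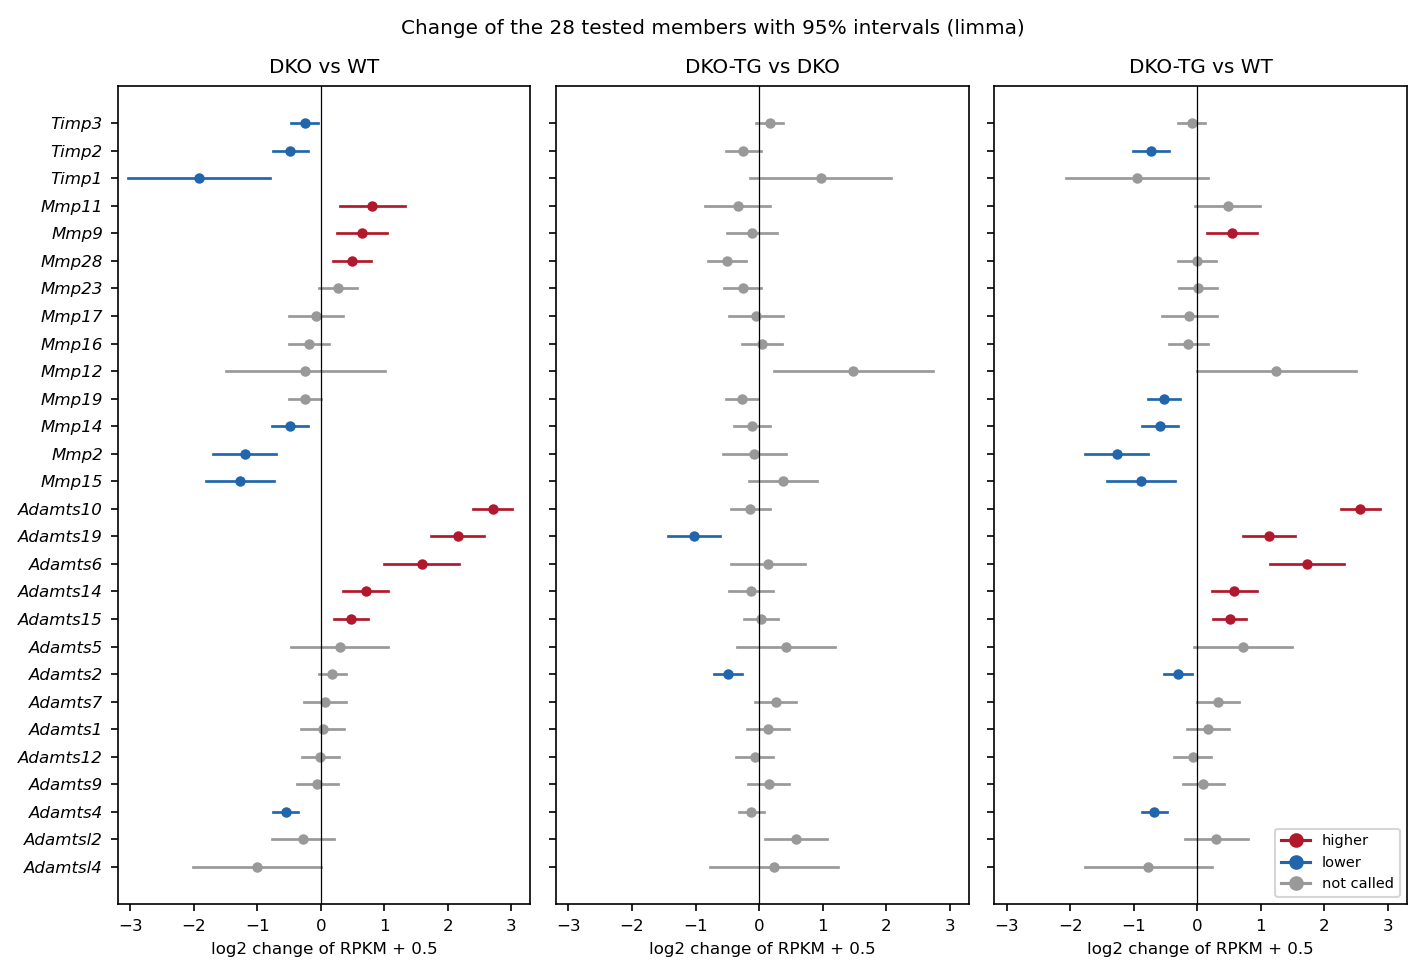
Log2 change of log2(RPKM + 0.5) for the 28 tested genes in DKO against WT, DKO-TG against DKO and DKO-TG against WT ovaries, as deposited. Bars are 95% intervals from the limma fit over 3 libraries per group. Red (higher) and blue (lower) points passed an adjusted p under 0.05, and grey points did not. Adamts10, Adamts19 and Adamts6 stand furthest to the right in DKO against WT, while in DKO-TG against WT Adamts10 and Adamts6 are followed by Mmp12, which was not called, and Adamts19, and 2 genes are called between DKO-TG and DKO.

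Among the inhibitors, Timp1, Timp2 and Timp3 fell in DKO against WT ovaries, and Timp2 also in DKO-TG against WT ovaries. Timp1 (chrX:20870166-20874735, plus strand) had 79.1, 286 and 93.9 RPKM in the DKO-TG libraries, 67.4, 101 and 40.8 RPKM in the DKO libraries and 195, 305 and 257 RPKM in the WT libraries. The DKO libraries all lay under the WT libraries, while DKO-TG library 2 lay within the WT range and the other DKO-TG libraries did not. The change was -1.92 ± 0.49, limma adjusted p = 0.00976 in DKO against WT, a ratio of means of 0.277. It was 0.97 ± 0.49, limma adjusted p = 0.384 in DKO-TG against DKO and -0.95 ± 0.49, limma adjusted p = 0.135 in DKO-TG against WT, and neither passed. Without DKO-TG library 2, the DKO-TG libraries were called lower than WT at -1.52 (limma adjusted p = 0.0115), and with array weights at -1.26, limma adjusted p = 0.0295. That library also held 5.10 RPKM of Mmp12 and a sum of 1330.2 RPKM over 7 luteal cell markers, against 465 and 549 RPKM in the other DKO-TG libraries. Luteal sums were 933, 357 and 133 RPKM in the DKO libraries and 419, 1031 and 1468 RPKM in the WT libraries. DKO library 1, with the highest luteal sum of its group, had 67.4 RPKM of Timp1. None of the 7 markers was at 0 throughout, and their part in the Timp1 values was not tested. With quantile normalization the DKO call on Timp1 was lost (-1.28, limma adjusted p = 0.0671).

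Timp2 (chr11:118301069-118355740, minus strand), which both inhibits MMPs and, bound to Mmp14, docks the Mmp2 precursor for activation, had 32.5, 35.5 and 29.5 RPKM in the DKO-TG libraries, 39.4, 41.5 and 34.97 RPKM in the DKO libraries and 50.8, 49.6 and 62.5 RPKM in the WT libraries. No DKO-TG or DKO library reached the lowest WT library. Timp2 changed by -0.48 ± 0.12, limma adjusted p = 0.00940 in DKO against WT and by -0.73 ± 0.12, limma adjusted p = 0.00134 in DKO-TG against WT. With TPM scaling the DKO change turned to 0.066 (-0.48 relative to that scaling's median), and the call was lost with quantile normalization (-0.021) and with the plain total of reads (-0.17). The DKO-TG call was lost with TPM (-0.21) and quantile normalization (-0.36). Timp3, the matrix-bound inhibitor that also blocks ADAM17 and the aggrecan-cutting ADAMTS enzymes, had 11.7, 12.7 and 10.7 RPKM in the DKO-TG libraries, 10.4, 11.0 and 9.65 RPKM in the DKO libraries and 13.2, 12.6 and 11.6 RPKM in the WT libraries. The DKO and WT libraries did not overlap, but the change was small (-0.25 ± 0.093, limma adjusted p = 0.0445). It was lost when any of 7 of the 9 libraries was left out, all but DKO library 2 and WT library 3, and it turned to 0.28 with TPM (-0.26 relative to the median) and 0.052 with the plain total. Exons of the gene Syn3 on the other strand cover 21.3% of the exon length of Timp3, and whether counting used strand is not given in the sources used here. Timp4 stayed under the filter, with 0.504, 0.176 and 0.119 RPKM in the DKO-TG libraries, 0.202, 0.348 and 0.0311 RPKM in the DKO libraries and 0.178, 0.391 and 0.148 RPKM in the WT libraries.

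Timp1 made up most of the summed TIMP level in 8 of the 9 libraries. Its share was 63.9% to 85.5% in DKO-TG, 47.7% to 65.8% in DKO and 75.3% to 83.0% in WT libraries, and that of Timp2 was 10.6% to 26.2% in DKO-TG, 26.9% to 40.9% in DKO and 13.5% to 19.6% in WT libraries. The summed TIMP level was 124 to 334 RPKM in DKO-TG, 85.4 to 154 RPKM in DKO and 259 to 368 RPKM in WT libraries.

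**Figure D3:**
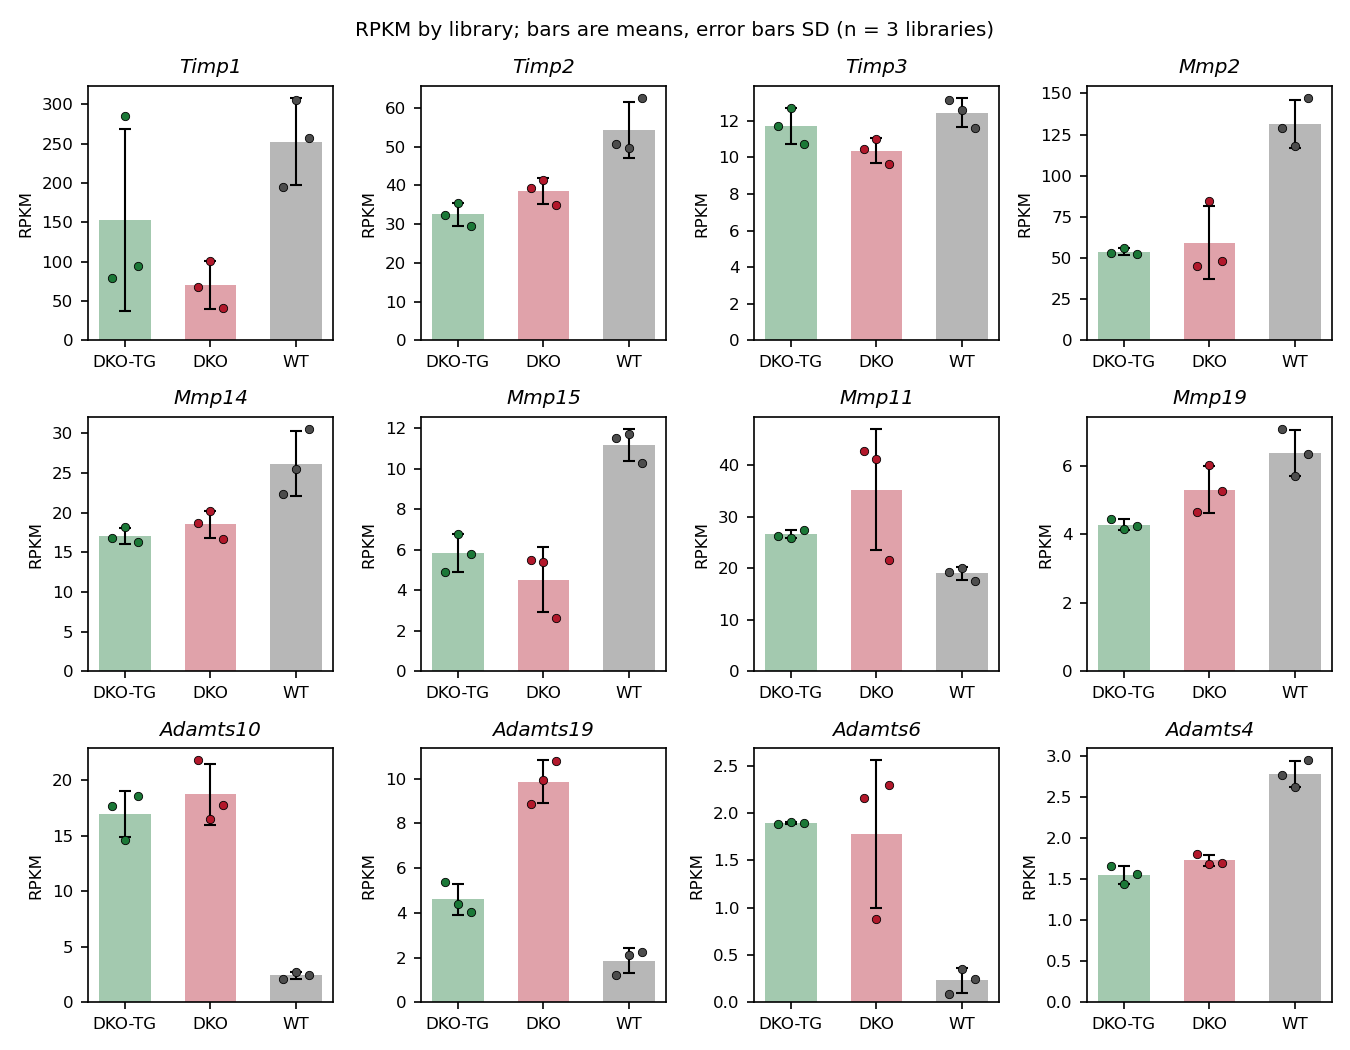
RPKM of 12 members in each library (points) with the mean and SD of 3 libraries per group, in the order DKO-TG, DKO and WT, each panel on its own linear axis. Timp1 of DKO-TG library 2, at 286 RPKM, lies within the WT range, while Adamts10 lies between 14.6 and 21.8 RPKM in all DKO-TG and DKO libraries and between 2.13 and 2.77 RPKM in WT libraries.

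Gelatinase A (Mmp2) and the membrane-type Mmp14 and Mmp15 fell in both double-knockout groups against WT. Mmp2 (chr8:92827291-92853420, plus strand), which degrades denatured collagen and basement membrane collagen, had 53.2, 56.3 and 52.3 RPKM in the DKO-TG libraries, 45.1, 84.7 and 47.9 RPKM in the DKO libraries and 129, 118 and 147 RPKM in the WT libraries. Every DKO-TG and DKO library lay under every WT library. The change was -1.197 ± 0.22, limma adjusted p = 0.00190 in DKO against WT and -1.27 ± 0.22, limma adjusted p = 0.00151 in DKO-TG against WT, ratios of means of 0.451 and 0.410. These calls held under all 22 alternatives, although with TPM the changes were -0.65 and -0.75. DKO-TG and DKO ovaries did not differ detectably in Mmp2 (-0.075, 95% interval -0.57 to 0.42).

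Mmp14 (chr14:54431612-54445364, plus strand), the membrane-anchored collagenase that activates the Mmp2 precursor, had 16.8, 18.2 and 16.2 RPKM in the DKO-TG libraries, 18.7, 20.2 and 16.7 RPKM in the DKO libraries and 22.4, 25.5 and 30.5 RPKM in the WT libraries. Its highest DKO-TG and DKO values stayed under the lowest WT value. It changed by -0.48 ± 0.12, limma adjusted p = 0.0104 in DKO and by -0.59 ± 0.12, limma adjusted p = 0.00421 in DKO-TG against WT. The DKO change turned to 0.062 with TPM (-0.48 relative to the median) and was not called with quantile normalization (-0.23) or the plain total (-0.17); the DKO-TG change was not called with TPM (-0.073) or the plain total (-0.33). Mmp15 (chr8:95352268-95375080, plus strand), another transmembrane MMP that can activate Mmp2, had 4.90, 6.78 and 5.79 RPKM in the DKO-TG libraries, 5.51, 5.40 and 2.66 RPKM in the DKO libraries and 11.5, 11.7 and 10.3 RPKM in the WT libraries. Both double-knockout groups again lay wholly under WT, with -1.27 ± 0.23, limma adjusted p = 0.00204 in DKO and -0.89 ± 0.23, limma adjusted p = 0.0121 in DKO-TG against WT. The DKO call held under all 22 alternatives, and the DKO-TG call was lost with TPM (-0.40, -0.92 relative to the median). The other membrane-type members did not pass in any comparison: Mmp16 averaged 0.446 ± 0.0867 RPKM in DKO-TG, 0.413 ± 0.0391 RPKM in DKO and 0.547 ± 0.142 RPKM in WT ovaries (SD, n = 3 each), and the lipid-anchored Mmp17 averaged 1.54 ± 0.155 RPKM in DKO-TG, 1.64 ± 0.458 RPKM in DKO and 1.75 ± 0.407 RPKM in WT ovaries. Mmp24 and the lipid-anchored Mmp25 stayed under the filter.

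Some markers of fibroblasts, smooth muscle and endothelium were also called lower than in WT ovaries, but the fibroblast sums of DKO and WT libraries overlapped. Over all genes, 25.9% were called lower in DKO and 22.3% in DKO-TG against WT. The sum over 8 fibroblast markers was 301 to 378 RPKM in DKO-TG, 407 to 497 RPKM in DKO and 484 to 575 RPKM in WT libraries. Of the 8, 3 were called lower in DKO and 5 lower in DKO-TG against WT, and none was called higher. The sum over 6 smooth muscle markers was 179 to 228 RPKM in DKO-TG, 189 to 329 RPKM in DKO and 353 to 415 RPKM in WT libraries, with 3 of 6 called lower in each comparison with WT. Of 9 endothelial markers, 6 were called lower and 1 higher in DKO against WT (median -0.64), and 4 lower and 1 higher in DKO-TG against WT (median -0.37), while their sums overlapped, with 98.7 to 116 RPKM in DKO-TG, 77.5 to 123 RPKM in DKO and 114 to 125 RPKM in WT libraries. None of these markers was at 0 throughout, and their part in the fall of Mmp2, Mmp14, Mmp15 and the TIMPs was not tested.

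Mmp11 went the other way. Mmp11, a furin-activated stromelysin made mostly by stromal cells, had 26.3, 25.9 and 27.5 RPKM in the DKO-TG libraries, 42.8, 41.2 and 21.7 RPKM in the DKO libraries and 19.4, 20.1 and 17.5 RPKM in the WT libraries. All DKO and DKO-TG libraries lay above WT, and 2 DKO libraries stood apart from the other DKO library, which was under every DKO-TG value. It changed by 0.81 ± 0.23, limma adjusted p = 0.0141 in DKO against WT, a call that held under all 22 alternatives. In DKO-TG against WT the change was 0.48 ± 0.23, limma adjusted p = 0.107 and did not pass; without DKO library 3 it passed (limma adjusted p = 0.00230), as it did with TPM (1.00, limma adjusted p = 0.00611), the plain total, array weights and the 6 libraries compared alone. Without that library Mmp11 was also lower in DKO-TG than in DKO ovaries (-0.65, limma adjusted p = 0.0360), against -0.34 ± 0.23, limma adjusted p = 0.517 with it. Chchd10 on the other strand shares 5.58% of the exon length of Mmp11. Mmp9 (gelatinase B), which cuts much the same substrates as Mmp2, was sparse and moved opposite to it, with 0.614, 0.933 and 0.607 RPKM in the DKO-TG libraries, 0.812, 0.662 and 0.942 RPKM in the DKO libraries and 0.197, 0.505 and 0.316 RPKM in the WT libraries. The WT libraries lay under all others. The change was 0.65 ± 0.17, limma adjusted p = 0.0120 in DKO and 0.54 ± 0.17, limma adjusted p = 0.0279 in DKO-TG against WT, and quantile normalization ended both calls (0.11 and 0.0013). The DKO-TG call was also lost without DKO-TG library 2, WT library 1 or WT library 3, at limma adjusted p = 0.0968, 0.0938 and 0.0691.

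Mmp19, which digests basement membrane and is expressed in granulosa and theca cells of ovulating mouse follicles, had 4.46, 4.14 and 4.24 RPKM in the DKO-TG libraries, 4.63, 6.02 and 5.24 RPKM in the DKO libraries and 7.06, 5.70 and 6.33 RPKM in the WT libraries. The DKO-TG libraries lay under all DKO and WT libraries, and DKO and WT overlapped. It fell in DKO-TG against WT (-0.52 ± 0.11, limma adjusted p = 0.00459) and did not pass in DKO against WT (-0.24 ± 0.11, limma adjusted p = 0.0866) or in DKO-TG against DKO (-0.27 ± 0.11, limma adjusted p = 0.274). Without DKO library 2 the DKO difference from WT passed (-0.33, limma adjusted p = 0.0287), as it did with TMM (-0.34, limma adjusted p = 0.0301) and quantile normalization, whereas with TPM it was 0.27 and the DKO-TG change was -0.035 (-0.27 and -0.55 relative to the medians). Exons of Gm47093 and Tmem198b on the other strand share 28.3% of its exon length. Mmp23, a small MMP that is freed from the membrane by its own processing and is known from reproductive tissue, had 10.2, 11.4 and 9.04 RPKM in the DKO-TG libraries, 14.0, 13.1 and 10.1 RPKM in the DKO libraries and 9.79, 10.6 and 9.88 RPKM in the WT libraries, overlapping in every pair of groups. It did not pass in DKO against WT (0.27 ± 0.13, limma adjusted p = 0.103), although it did without DKO library 3 (0.41, limma adjusted p = 0.0165), with TPM and with the plain total of reads.

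A pair of sparse MMPs was picked after their values were seen. Mmp28 (epilysin, an epithelial MMP) had 0.376, 0.199 and 0.306 RPKM in the DKO-TG libraries, 0.635, 0.723 and 0.509 RPKM in the DKO libraries and 0.304, 0.300 and 0.278 RPKM in the WT libraries, so that the DKO libraries lay above all others. It rose in DKO against WT (0.50 ± 0.13, limma adjusted p = 0.0117), was -0.50 ± 0.13, limma adjusted p = 0.0988 in DKO-TG against DKO, and did not differ detectably between DKO-TG and WT (-0.0071, 95% interval -0.31 to 0.29). With quantile normalization the DKO change from WT was -0.091 and DKO-TG was called lower than WT (-0.61, limma adjusted p = 0.00798). A gene on the other strand shares 12.0% of its exon length. Mmp12, which macrophages secrete to cut elastin, had 0.388, 5.10 and 1.62 RPKM in the DKO-TG libraries, 0.205, 0.497 and 0.184 RPKM in the DKO libraries and 0.646, 0.293 and 0.375 RPKM in the WT libraries. DKO-TG libraries 2 and 3 were above every other library and DKO-TG library 1 was not. Mmp1b on the other strand shares 2.17% of its exon length. No comparison of Mmp12 passed (1.49 ± 0.55, limma adjusted p = 0.231 in DKO-TG against DKO and 1.24 ± 0.55, limma adjusted p = 0.0874 in DKO-TG against WT), but without DKO-TG library 1 DKO-TG against WT gave 1.90 (limma adjusted p = 0.00701), and it also passed with TPM (1.79, limma adjusted p = 0.0299) and array weights. The 13 macrophage markers summed to 173 to 222 RPKM in DKO-TG, 269 to 499.9 RPKM in DKO and 192 to 241 RPKM in WT libraries; 12 were tested, 9 of them called higher in DKO than in WT and 9 lower in DKO-TG than in DKO ovaries. Of all genes tested, 30.8% were called higher in DKO against WT and 1.73% lower in DKO-TG against DKO. The part of macrophages in the Mmp12 values was not tested.

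Among the ADAMTS proteases the largest increases were in the pair linked to fibrillin microfibrils and in Adamts19. Adamts10 (chr17:33524204-33553782, plus strand), whose human counterpart is mutated in Weill-Marchesani syndrome and binds fibrillin, had 17.7, 14.6 and 18.6 RPKM in the DKO-TG libraries, 21.8, 16.6 and 17.8 RPKM in the DKO libraries and 2.13, 2.77 and 2.45 RPKM in the WT libraries. The double-knockout groups did not come near the WT values. It changed by 2.70 ± 0.14, limma adjusted p = 1.55e-06 in DKO and by 2.56 ± 0.14, limma adjusted p = 2.40e-06 in DKO-TG against WT, ratios of means of 7.66 and 6.93. Adamts6 (chr13:104287835-104496695, plus strand), its closest relative in the family, had 1.89, 1.90 and 1.90 RPKM in the DKO-TG libraries, 2.16, 0.881 and 2.30 RPKM in the DKO libraries and 0.0924, 0.350 and 0.252 RPKM in the WT libraries. DKO library 2 was the lowest of the double-knockout libraries and still lay above WT. The changes were 1.59 ± 0.26, limma adjusted p = 0.00107 in DKO and 1.73 ± 0.26, limma adjusted p = 0.000737 in DKO-TG against WT, with ratios of means of 7.68 and 8.19. All 4 of these calls held under all 22 alternatives. DKO-TG and DKO did not differ detectably in either gene (Adamts10 -0.14, 95% interval -0.45 to 0.17, and Adamts6 0.14, 95% interval -0.45 to 0.73).

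Adamts19, an ADAMTS protease of unsettled substrate that is expressed in gonads, was the one member called in all 3 comparisons. It had 5.39, 4.38 and 4.06 RPKM in the DKO-TG libraries, 8.86, 9.95 and 10.8 RPKM in the DKO libraries and 1.24, 2.14 and 2.24 RPKM in the WT libraries. The 3 groups did not overlap, with DKO-TG between DKO and WT. It rose in DKO against WT (2.15 ± 0.18, limma adjusted p = 2.99e-05) and in DKO-TG against WT (1.13 ± 0.18, limma adjusted p = 0.00110), both under all alternatives that could be run. It fell in DKO-TG against DKO (-1.02 ± 0.18, limma adjusted p = 0.0304), to 0.467 of the DKO mean. That call was lost in 6 of the 9 fits without 1 library, namely any DKO-TG library, DKO library 2, DKO library 3 or WT library 2, at limma adjusted p of up to 0.136, and it was also lost without a filter, with TPM and with the replicate number as a block. The annotated exon length did not return whole reads for Adamts19, so the gene model behind its RPKM may differ from the annotation used here.

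The procollagen N-proteinases cut the amino-terminal propeptide from fibrillar procollagens. Adamts2, the main one for type I procollagen, had 9.66, 7.89 and 8.80 RPKM in the DKO-TG libraries, 12.0, 12.4 and 13.1 RPKM in the DKO libraries and 10.1, 11.0 and 11.8 RPKM in the WT libraries. The DKO-TG libraries lay under all DKO and WT libraries. Adamts2 fell in DKO-TG against DKO (-0.49 ± 0.096, limma adjusted p = 0.0423) and in DKO-TG against WT (-0.31 ± 0.096, limma adjusted p = 0.0258) and did not pass in DKO against WT (0.18 ± 0.096, limma adjusted p = 0.131), although it was called higher there with TPM (0.73, limma adjusted p = 0.00366) and with the plain total (0.49, limma adjusted p = 0.00876). The fall against DKO was lost when any library other than WT library 1 was left out, with limma adjusted p of up to 0.159. The fall against WT was lost without DKO-TG library 2 or 3 or WT library 2 or 3, and with TPM it turned to 0.20 (-0.32 relative to the median). Adamts14 had 0.864, 0.849 and 0.715 RPKM in the DKO-TG libraries, 0.733, 1.197 and 0.891 RPKM in the DKO libraries and 0.244, 0.439 and 0.458 RPKM in the WT libraries, with WT under all other libraries. It rose in DKO (0.71 ± 0.16, limma adjusted p = 0.00481) and in DKO-TG (0.58 ± 0.16, limma adjusted p = 0.0132) against WT, and both calls were lost with quantile normalization (0.18 and 0.080). Adamts3 did not pass the filter, with means of 0.317 ± 0.0862 RPKM in DKO-TG, 0.434 ± 0.127 RPKM in DKO and 0.337 ± 0.0749 RPKM in WT ovaries.

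The versican- and aggrecan-cutting proteases were split. Adamts1, which ovulatory signals induce in mouse granulosa cells and which cleaves versican of the cumulus matrix, had 11.0, 9.65 and 9.13 RPKM in the DKO-TG libraries, 7.56, 8.22 and 11.5 RPKM in the DKO libraries and 9.30, 8.47 and 8.55 RPKM in the WT libraries. All groups overlapped, and no comparison passed (0.027, 95% interval -0.30 to 0.36 in DKO against WT, and 0.16, 95% interval -0.17 to 0.50 in DKO-TG against WT). Its DKO change was -0.14 without DKO library 3 and -0.068 with TMM scaling. With TPM it was called higher in DKO (0.56, 0.021 relative to the median; limma adjusted p = 0.0160) and in DKO-TG (0.68, 0.16 relative to the median; limma adjusted p = 0.00680) against WT, and with the plain total in DKO-TG (0.42, limma adjusted p = 0.0450). Adamts4 (chr1:171250421-171260637, plus strand) had 1.66, 1.44 and 1.56 RPKM in the DKO-TG libraries, 1.81, 1.69 and 1.70 RPKM in the DKO libraries and 2.77, 2.62 and 2.95 RPKM in the WT libraries. The 3 groups did not overlap, and Adamts4 fell in DKO (-0.56 ± 0.086, limma adjusted p = 0.000827) and DKO-TG (-0.68 ± 0.086, limma adjusted p = 0.000312) against WT. With TPM these changes were -0.11 and -0.27 (-0.66 and -0.79 relative to the medians) and were not called. Adamts15 had 0.514, 0.519 and 0.556 RPKM in the DKO-TG libraries, 0.511, 0.445 and 0.565 RPKM in the DKO libraries and 0.166, 0.222 and 0.286 RPKM in the WT libraries. WT lay under all other libraries, and Adamts15 rose in DKO (0.48 ± 0.12, limma adjusted p = 0.00787) and DKO-TG (0.51 ± 0.12, limma adjusted p = 0.00626) against WT. Quantile normalization turned both to -0.19 and -0.14.

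Adamts5, named after its values were seen, had 3.22, 2.86 and 3.39 RPKM in the DKO-TG libraries, 2.64, 1.08 and 3.56 RPKM in the DKO libraries and 1.07, 2.42 and 1.89 RPKM in the WT libraries. DKO library 2 was as low as the lowest WT library, and the DKO-TG libraries lay above WT. No comparison passed, with 0.72 ± 0.34, limma adjusted p = 0.105 in DKO-TG against WT; without DKO library 2 that comparison gave 0.72 (limma adjusted p = 0.0267) and DKO against WT gave 0.69 (limma adjusted p = 0.0443). The DKO-TG difference from WT also passed with TPM (1.24, limma adjusted p = 0.0337), array weights and the 6 libraries compared alone. Adamts9, the related protease with a GON domain, averaged 4.82 ± 0.348 RPKM in DKO-TG, 4.36 ± 1.07 RPKM in DKO and 4.47 ± 0.156 RPKM in WT ovaries (SD, n = 3 each) and did not pass; genes on the other strand share 12.0% of its exon length. Adamts7 and Adamts12, which cut cartilage oligomeric matrix protein, were also detected in every library, at 1.54 to 2.76 RPKM and 2.17 to 3.11 RPKM, and did not pass. Adamts8, Adamts13, Adamts16, Adamts17, Adamts18 and Adamts20 stayed under the filter; Adamts13, the von Willebrand factor protease, reached at most 0.0317 RPKM.

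Some oocyte markers were called higher than in WT ovaries. The 8 markers summed to 47.9 to 68.8 RPKM in DKO-TG, 31.1 to 75.9 RPKM in DKO and 14.9 to 33.3 RPKM in WT libraries. DKO library 2, at 31.1 RPKM, lay within the WT range. Of the 8, 5 were called higher in DKO and 6 in DKO-TG against WT, with 30.8% and 29.1% of all genes. Libraries did not overlap with WT for 2 of the 8 in DKO (61.2% of all genes) and 6 in DKO-TG (65.8%). No oocyte marker was called in DKO-TG against DKO, where Adamts19 fell. Neutrophil markers (4 of 6 tested) and lymphocyte markers (3 of 5 tested) were also called higher in DKO against WT. In DKO-TG against WT these counts were 0 and 2. Of 12 tested macrophage markers, 9 were called higher and 0 lower in DKO against WT, and 1 higher and 4 lower in DKO-TG against WT. The part of any of these cell types, or of the differences in nuclear-retained RNAs, in the rise of Adamts10, Adamts6, Adamts19, Adamts14 and Adamts15 was not tested.

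Of the 5 ADAMTS-like genes, 2 were tested and neither passed in any comparison. Adamtsl4, whose human counterpart binds fibrillin and is mutated in displaced lens, had 3.13, 4.12 and 2.90 RPKM in the DKO-TG libraries, 3.57, 5.06 and 1.05 RPKM in the DKO libraries and 7.13, 8.10 and 3.82 RPKM in the WT libraries; it was named after its values were seen. DKO library 3 was the lowest and WT library 3 lay within the range of the other groups. The change was -1.01 ± 0.44, limma adjusted p = 0.0795 in DKO and -0.77 ± 0.44, limma adjusted p = 0.173 in DKO-TG against WT. It passed in DKO without DKO library 2 (-1.39, limma adjusted p = 0.0250) or without WT library 3 (-1.31, limma adjusted p = 0.0471), and in DKO-TG without DKO library 3 (limma adjusted p = 0.0402), with array weights or with the 6 libraries compared alone. Adamtsl2, linked to the control of TGF-beta availability, averaged 2.97 ± 1.02 RPKM in DKO-TG, 1.78 ± 0.428 RPKM in DKO and 2.25 ± 0.291 RPKM in WT ovaries (SD, n = 3 each). Adamtsl1, Adamtsl3 and Adamtsl5 stayed under the filter.

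Summed over each family, some RPKM totals differed between double-knockout and WT libraries. A few abundant genes weigh most in these totals, so they do not show a shift of a whole family. The MMP sum was 119.9 to 132 RPKM in DKO-TG, 108 to 175 RPKM in DKO and 196 to 226 RPKM in WT libraries, and in the TIMP sum given above every DKO-TG and DKO library except DKO-TG library 2 lay under all WT libraries. The ADAMTS sum ran the other way, with 54.5 to 63.7 RPKM in DKO-TG, 63.5 to 71.8 RPKM in DKO and 35.9 to 41.7 RPKM in WT libraries. The ADAMTS-like sum overlapped between all groups, with 6.43 to 8.02 RPKM in DKO-TG, 3.27 to 7.14 RPKM in DKO and 6.40 to 10.8 RPKM in WT libraries. Within the MMP sum, the share of Mmp2 was 42.8% to 44.3% in DKO-TG, 33.4% to 48.3% in DKO and 60.3% to 65.2% in WT libraries, and that of Mmp11 was 19.7% to 22.8% in DKO-TG, 19.98% to 31.7% in DKO and 7.77% to 10.3% in WT libraries. Within the ADAMTS sum, Adamts10 held 26.8% to 31.6% in DKO-TG, 24.8% to 32.2% in DKO and 5.87% to 6.79% in WT libraries. Adamts19 held 6.91% to 8.47% in DKO-TG, 13.1% to 15.7% in DKO and 3.45% to 5.38% in WT libraries. Adamts2 held 14.5% to 15.2% in DKO-TG, 17.7% to 19.5% in DKO and 27.0% to 28.3% in WT libraries. These sums are descriptions on the deposited scaling and carry no test. By family, the median log2 change in DKO against WT was 0.24 over 12 tested ADAMTS genes, -0.19 over 11 MMP genes and -0.48 over 3 TIMP genes; in DKO-TG against WT it was 0.42, -0.13 and -0.73.

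**Figure D4:**
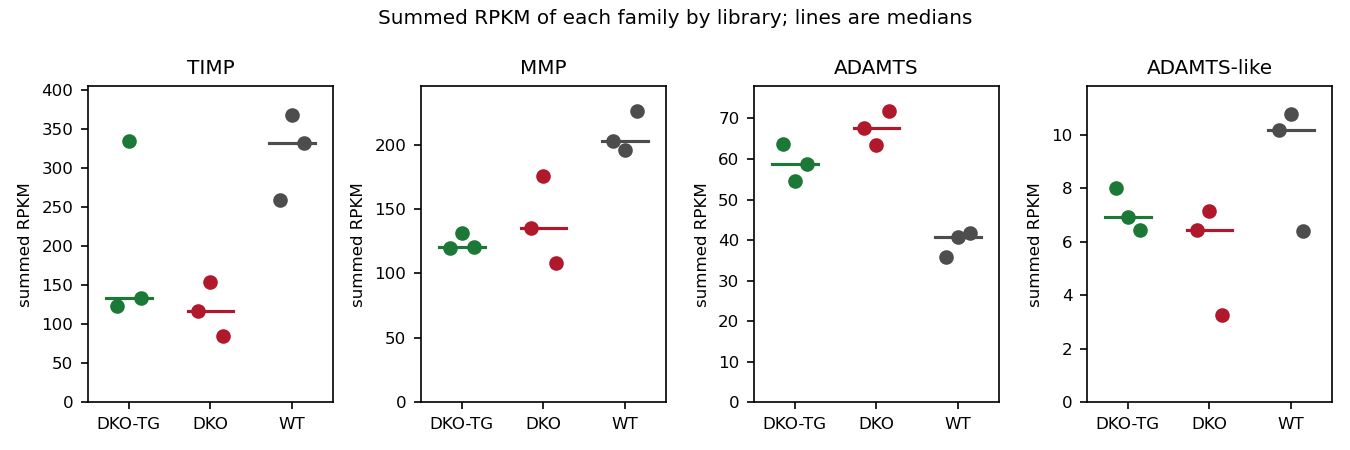
Summed RPKM of the TIMP, MMP, ADAMTS and ADAMTS-like genes in each library (points) with the median of 3 libraries per group (lines), in the order DKO-TG, DKO and WT, on linear axes from 0. MMP sums are 196 RPKM or more in WT and 175 RPKM or less elsewhere, and ADAMTS sums are 54.5 RPKM or more in DKO-TG and DKO and 41.7 RPKM or less in WT libraries.

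Genes that act with this system were taken as lists chosen by function. Of all genes tested, 30.8% were called higher and 25.9% lower in DKO against WT. The shares were 29.1% and 22.3% in DKO-TG against WT, and 0.498% and 1.73% in DKO-TG against DKO. Of the plasminogen activation genes, which make plasmin, an activator of MMP precursors, 7 of 11 were tested. In DKO against WT 1 was called higher (Plgrkt) and 4 lower (Plau, Plaur, Anxa2 and S100a10), in DKO-TG against WT 0 higher and 3 lower, and in DKO-TG against DKO 0 in either direction. The medians were -0.72, -0.57 and 0.14 in that order of comparisons. Plau, the urokinase plasminogen activator, averaged 83.5 ± 6.88 RPKM in DKO-TG, 72.8 ± 14.0 RPKM in DKO and 213 ± 12.9 RPKM in WT ovaries (SD, n = 3 each), and fell in DKO (-1.56 ± 0.15, limma adjusted p = 6.49e-05) and DKO-TG (-1.35 ± 0.15, limma adjusted p = 0.000158) against WT. Anxa2, which with S100a10 forms a plasminogen receptor, averaged 75.4 ± 5.97 RPKM in DKO-TG, 72.0 ± 17.3 RPKM in DKO and 139 ± 17.6 RPKM in WT ovaries; it fell in DKO (-0.96 ± 0.17, limma adjusted p = 0.00176) and DKO-TG (-0.87 ± 0.17, limma adjusted p = 0.00311). The gene Gm16144 on the other strand overlaps exons of Anxa2. The Plau and Anxa2 calls held under all 22 alternatives. The count lower in DKO against WT fell from 4 to 3 when any 1 library except DKO library 2 or WT library 3 was left out. It was also 3 without a filter, with the plain total, with the replicate block and with the 6 libraries compared alone. Without DKO library 2 or WT library 3, 2 genes of the list were called higher in DKO against WT, and without DKO library 2, DKO library 3 or WT library 1, 1 was called higher in DKO-TG against WT. With TPM, 4 were higher and 3 lower in DKO and 2 higher and 3 lower in DKO-TG against WT, and with the plain total 2 were higher in DKO and 1 in DKO-TG.

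Of the genes that control metalloproteinases other than TIMPs, 12 of 15 were tested. In DKO against WT 2 were called higher (Thbs1 and Thbs2) and 8 lower (Bsg, Furin, Lrp1, Pcolce, Pcsk5, Pcsk6, Sparc and Spock2), and those 8 were also called lower in DKO-TG against WT, with 0 higher. The medians were -0.57 and -0.59. Of all genes tested, 30.8% were called higher and 25.9% lower in DKO, and 29.1% and 22.3% in DKO-TG, against WT. Pcsk6, a proprotein convertase that can cut MMP and ADAMTS precursors, averaged 2.85 ± 0.814 RPKM in DKO-TG, 3.19 ± 1.01 RPKM in DKO and 14.7 ± 7.67 RPKM in WT ovaries (SD, n = 3 each); it fell in DKO (-1.97 ± 0.34, limma adjusted p = 0.00149) and DKO-TG (-2.10 ± 0.34, limma adjusted p = 0.00115) against WT, under all 22 alternatives. A predicted gene, Gm45213, overlaps its exons on the same strand. Bsg, the MMP inducer basigin, averaged 159 ± 4.59 RPKM in DKO-TG, 154 ± 10.7 RPKM in DKO and 261 ± 51.8 RPKM in WT ovaries and fell by 0.75 (limma adjusted p = 0.00253) and 0.69 (limma adjusted p = 0.00396). Both calls were lost with TPM (-0.20 and -0.17) and with quantile normalization. Spock2, a testican proteoglycan, averaged 15.5 ± 0.891 RPKM in DKO-TG, 22.7 ± 2.20 RPKM in DKO and 30.2 ± 3.01 RPKM in WT ovaries; it fell in DKO (-0.40 ± 0.11, limma adjusted p = 0.0116) and DKO-TG (-0.93 ± 0.11, limma adjusted p = 0.000180) against WT, and was the 1 list gene lower in DKO-TG than in DKO (-0.53 ± 0.11, limma adjusted p = 0.0463). The fall against DKO was lost without any library except DKO library 2, and with TPM the DKO change from WT was 0.14 (-0.40 relative to the median). The DKO call against WT was also lost with quantile normalization (-0.079) and the plain total (-0.093). In 5 of the 9 fits without 1 library (without DKO-TG library 3, DKO library 1 or 3, or WT library 1 or 2), 0 or 1 gene of this list was called higher in DKO against WT. The count higher there was also 0 with TMM, without a filter, with array weights and with the replicate block, and 1 with the 6 libraries compared alone. The count lower there was 6 without a filter, with the 6 libraries compared alone and without DKO library 3. Other scalings changed these counts: in DKO against WT 3 were higher and 2 lower with TPM, 1 and 2 with quantile normalization and 3 and 4 with the plain total, and in DKO-TG against WT 3 were higher and 4 lower with TPM, 0 and 3 with quantile normalization and 0 and 5 with the plain total.

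The substrates followed no single direction. The shares of all genes called higher and lower were 30.8% and 25.9% in DKO against WT and 29.1% and 22.3% in DKO-TG against WT. In DKO-TG against DKO they were 0.498% and 1.73%. Of the hyaluronan, versican and cumulus matrix genes, 13 of 20 were tested; 2 were higher (Hapln3 and Has3) and 6 lower in DKO against WT (median -0.36), 2 higher and 3 lower in DKO-TG against WT (median -0.13), and 1 lower in DKO-TG against DKO (median 0.056). Hapln3, a link protein that ties proteoglycans to hyaluronan, averaged 1.13 ± 0.175 RPKM in DKO-TG, 1.14 ± 0.209 RPKM in DKO and 0.359 ± 0.105 RPKM in WT ovaries (SD, n = 3 each) and rose in DKO (0.93 ± 0.14, limma adjusted p = 0.000848) and DKO-TG (0.93 ± 0.14, limma adjusted p = 0.000949) against WT under all 22 alternatives. Hspg2, the basement membrane proteoglycan perlecan, averaged 32.3 ± 1.95 RPKM in DKO-TG, 30.4 ± 1.85 RPKM in DKO and 50.4 ± 3.66 RPKM in WT ovaries and fell in DKO (-0.72 ± 0.092, limma adjusted p = 0.000308) and DKO-TG (-0.63 ± 0.092, limma adjusted p = 0.000655). With TPM the changes were -0.17 and -0.11 and were not called. Both calls were also lost with quantile normalization (-0.29 and -0.26). The small proteoglycan Bgn averaged 51.8 ± 7.28 RPKM in DKO-TG, 78.3 ± 16.3 RPKM in DKO and 108 ± 5.13 RPKM in WT ovaries and fell in DKO (-0.47 ± 0.16, limma adjusted p = 0.0312) and DKO-TG (-1.06 ± 0.16, limma adjusted p = 0.000789). Its DKO call was lost without DKO library 1 or 3 or any WT library, and turned to 0.076 with TPM and 0.089 with quantile normalization. The Bgn call in DKO was also lost with the plain total (-0.16), without a filter, with the replicate block and with the 6 libraries compared alone. Dcn (decorin, also a fibroblast marker) averaged 57.6 ± 1.91 RPKM in DKO-TG, 99.3 ± 9.69 RPKM in DKO and 85.9 ± 9.40 RPKM in WT ovaries; it fell in DKO-TG against DKO (-0.78 ± 0.11, limma adjusted p = 0.0171) and against WT (-0.57 ± 0.11, limma adjusted p = 0.00318), and the call against DKO was lost without any DKO-TG library or DKO library 3. The Dcn call against WT was lost with TPM (-0.041), quantile normalization (-0.096) and the plain total (-0.30). Without DKO library 2 or WT library 1, 1 gene of this list was called higher in DKO-TG against DKO. The balance against WT shifted with the scaling: in DKO 5 were higher and 1 lower with TPM and 3 and 2 with the plain total, and in DKO-TG 4 were higher and 1 lower with TPM and 2 and 2 with the plain total. The count lower in DKO against WT was 4 or 5 in every fit without 1 library. It was 4 without a filter, with quantile normalization, with the replicate block and with the 6 libraries compared alone.

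Of the fibrillin microfibril genes, on which Adamts10 and Adamts6 are thought to act, 16 of 17 were tested. The share of them called lower was 25% in DKO and 18.8% in DKO-TG against WT, near or under the 25.9% and 22.3% of all genes. Called higher were 0, with 30.8% and 29.1% of all genes. In DKO against WT 0 were called higher and 4 lower (Fbn1, Loxl1, Ltbp1 and Ltbp4; median -0.23), in DKO-TG against WT 0 higher and 3 lower (Loxl1, Ltbp4 and Mfap2; median -0.33), and in DKO-TG against DKO 0 in either direction. Loxl1, an elastin crosslinking enzyme, averaged 8.02 ± 0.755 RPKM in DKO-TG, 12.8 ± 3.97 RPKM in DKO and 21.1 ± 0.433 RPKM in WT ovaries (SD, n = 3 each) and fell in DKO (-0.74 ± 0.18, limma adjusted p = 0.00828) and DKO-TG (-1.34 ± 0.18, limma adjusted p = 0.000456) against WT. Ltbp4, which anchors latent TGF-beta to microfibrils, averaged 15.7 ± 0.767 RPKM in DKO-TG, 16.5 ± 2.79 RPKM in DKO and 25.6 ± 2.27 RPKM in WT ovaries and fell in DKO (-0.62 ± 0.12, limma adjusted p = 0.00295) and DKO-TG (-0.69 ± 0.12, limma adjusted p = 0.00196). The DKO calls on both, and the DKO-TG call on Ltbp4, were lost with TPM (-0.21, -0.084 and -0.17). The DKO calls on Loxl1 and Ltbp4 were also lost with the plain total (-0.43 and -0.31), and that on Ltbp4 with quantile normalization (-0.38). With TPM, 3 genes of the list were called higher and 0 lower in DKO and 2 higher and 1 lower in DKO-TG against WT; with the plain total, 2 were higher and 0 lower in DKO and 0 higher and 2 lower in DKO-TG, and with quantile normalization 5 were lower in DKO-TG. The count lower in DKO against WT was 2 without DKO library 3, WT library 2 or WT library 3 and 7 without WT library 1, and that in DKO-TG against WT was 5 without DKO-TG library 1 and 6 without WT library 1.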

How the data were processed

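RNA of 9 ovary libraries was compared; groups and numbers were taken from the labels. The authors deposited 1 table of RPKM values. The submitters' processing notes name the genome build mm10, DESeq2 1.2.8, HTSeq 0.5.4p5, HISAT2 2.1.0 and cutadapt; no source used here gives the step to RPKM, the annotation or the use of strand. The columns of the transgene libraries spell the transgene slightly differently from the titles; group and number matched them. Identifiers matched GENCODE M21 for 54809 of 54838 genes. Multiplying values by exon length gave whole reads, within 0.01 read or a relative 1e-06, for 97.6% to 97.9% of values above 0 in a library, and for 50 of the 51 members. The library size behind the RPKM was 0.793 to 0.920 times the read total in WT and 1.03 to 1.11 times elsewhere.

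Genes with at least 0.5 RPKM in at least 3 libraries entered limma 3.58.1 in R 4.3.3 (lmFit, then eBayes with trend) as log2(RPKM + 0.5), all libraries in 1 fit, with Benjamini-Hochberg adjustment over 18889 genes. The fit was tested on simulated data. Alternatives changed the pseudocount, filter, scaling, weights, block, libraries and test (limma-voom on recovered reads). The members, lists and tests were chosen with earlier results of these data known. Named were all TIMPs, members averaging at least 5 RPKM, 6 members known from the ovary, up to 6 members per direction with the largest called changes and no overlap between groups, and up to 2 called genes per list and comparison. RefSeq start windows were matched by symbol.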

Additional observations from a re-analysis of the deposited data

How the results depend on the processing

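Results were recomputed under up to 22 alternatives; sparse genes that a setting left untested have fewer. The count of members called higher in DKO than in WT ovaries (8) was 4 with the filter at 1 RPKM, 13 with TPM and 4 with quantile normalization, and the count called lower (7) was 3 with TPM and 4 with the plain total of reads. For DKO-TG against WT, the count higher (6) was 3 with the filter at 1 RPKM, 18 with TPM and 3 with quantile normalization, and the count lower (7) was 1 with TPM. For DKO-TG against DKO, the count lower (2) was 0 without a filter and with TPM, and 1 with the plain total, with the 6 libraries compared alone and with limma-voom, where Adamts19 could not enter. Leaving out 1 library gave 0 to 2. The count higher (0; 2 of the 28 had an unadjusted p under 0.05 and a positive change) was 0 with limma-voom. The labels do not say whether replicate numbers pair the libraries. Deviations of same-numbered libraries correlated between -0.31 and 0.14, and whether such libraries were handled together is not known. With the replicate block, the counts higher and lower were 8 and 8 in DKO against WT, 0 and 0 in DKO-TG against DKO, and 6 and 9 in DKO-TG against WT. Signs that turned in DKO against WT, as log2 changes, were with TMM Adamts1 -0.068, with TPM Mmp14 0.062, Mmp19 0.27, Timp2 0.066, Timp3 0.28, Bgn 0.076, Spock2 0.14, with quantile normalization Adamts15 -0.19, Mmp28 -0.091, Adamts5 -0.046, Bgn 0.089, with the plain total Mmp19 0.047, Timp3 0.052 and Adamts1 -0.14 to 0.14 over the fits without 1 library (turned without DKO library 3). In DKO-TG against DKO they were Adamts15 -0.011 to 0.075 over the fits without 1 library (turned without DKO library 2), Adamts6 -0.19 to 0.32 over the fits without 1 library (turned without DKO library 2), Mmp2 -0.24 to 0.21 over the fits without 1 library (turned without DKO library 2) and Adamtsl4 -0.31 to 0.61 over the fits without 1 library (turned without DKO library 3). In DKO-TG against WT they were with TMM Mmp23 -0.11, with TPM Adamts2 0.20, Timp3 0.43, Mmp28 0.25, with quantile normalization Adamts15 -0.14, with the plain total Timp3 0.17, Mmp28 0.089, with array weights Mmp23 -0.061, Mmp28 0.0094, Mmp23 -0.067 to 0.091 over the fits without 1 library (turned without DKO-TG library 2 or WT library 1 or WT library 3) and Mmp28 -0.081 to 0.081 over the fits without 1 library (turned without DKO-TG library 2 or WT library 1). Scaling moved the median of all genes, so a turned sign need not be a turned rank; other causes were not tested. Depth limits the 23 untested members most, and values near 0.5 RPKM.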

Other observations

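The ADAM and astacin proteases are further zinc proteases of the cell surface and matrix, among them shedding enzymes and the procollagen C-proteinase Bmp1. Of the 15 genes listed, 10 were tested. The shares of all genes called higher and lower were 30.8% and 25.9% in DKO against WT and 29.1% and 22.3% in DKO-TG against WT. In DKO-TG against DKO they were 0.498% and 1.73%. In DKO against WT ovaries 5 were called higher (Adam8, Adam9, Adam17, Adam33 and Bmp1) and 0 lower (median log2 change 0.20), in DKO-TG against WT 4 higher (Adam8, Adam9, Adam17 and Adam33) and 0 lower (median 0.24), and in DKO-TG against DKO 0 higher and 1 lower (median -0.079). Adam8, a protease best known from leukocytes, averaged 1.96 ± 0.125 RPKM in DKO-TG, 1.84 ± 0.113 RPKM in DKO and 0.383 ± 0.101 RPKM in WT ovaries (SD, n = 3 each) and rose in DKO (1.41 ± 0.11, limma adjusted p = 2.01e-05) and DKO-TG (1.48 ± 0.11, limma adjusted p = 1.58e-05) against WT. A gene on the other strand, Gm16201, overlaps its exons. Adam33, a protease of mesenchymal cells, averaged 1.21 ± 0.0523 RPKM in DKO-TG, 1.97 ± 0.236 RPKM in DKO and 0.0653 ± 0.00817 RPKM in WT ovaries; it rose in DKO (2.13 ± 0.10, limma adjusted p = 1.36e-06) and DKO-TG (1.60 ± 0.10, limma adjusted p = 7.34e-06) against WT and fell in DKO-TG against DKO (-0.53 ± 0.10, limma adjusted p = 0.0430). The calls of both genes against WT held under all 22 alternatives, and the fall of Adam33 against DKO was lost when any 1 library was left out. The count higher in DKO against WT was 3 with TMM and 4 with array weights, the replicate block and the 6 libraries compared alone. It was also 4 when any 1 DKO-TG library, DKO library 1, WT library 1 or WT library 2 was left out. It was 6 without a filter and with quantile normalization, and 7 with the plain total. Without WT library 1, 1 gene of the list was called lower in DKO-TG against WT. With TPM 8 were called higher in DKO and 7 in DKO-TG against WT, and with quantile normalization 2 were called lower in DKO-TG against WT.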
